A study of Mus musculus with 12 samples.

Results

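This report describes the genes of the EGF family and their ErbB receptors in C2C12 myotubes, the mouse cells that were sequenced in this study. The members were chosen by name and comprise 7 genes of the 55487 in the deposited count table: the receptor genes Egfr, Erbb2 and Erbb3, the genes Hbegf (heparin-binding EGF-like growth factor), Areg (amphiregulin) and Ereg (epiregulin), whose products bind the EGF receptor, and the neuregulin gene Nrg1. All 7 were found in the table. C2C12 is an established mouse line whose myoblasts stop dividing and fuse into myotubes in low serum, and some cells in such cultures stay unfused. Myotubes formed over 5 days in 2% horse serum were then held for 24 h in medium with 4% STEM, a cell-free secretome of partially differentiated human pluripotent stem cells, or in medium with 4% horse serum as the control. STEM took the place of horse serum, so the addition of one and the removal of the other cannot be told apart. Each group had 6 libraries of total RNA. The horse serum libraries carry the numbers 1 to 6 and the STEM libraries 7 to 12, and nothing in the labels says whether they came from separate cultures, so that p-values measure only the spread between these libraries, which may be technical.

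EGF-like ligands are made as membrane-anchored precursors that metalloproteinases release from the cell surface. Hbegf, Areg and Ereg code for ligands of the EGF receptor, while neuregulins bind ErbB3 and ErbB4. The receptors signal as pairs: ErbB2 has no known soluble ligand and serves as the partner of the others, and ErbB3 has a weak kinase and depends on such a partner. In muscle, neuregulin is best known from the neuromuscular junction and the muscle spindle, and cultured muscle cells respond to EGF receptor ligands and to neuregulin through the ERK and PI3K pathways.

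All ligands of the family share a module held together by cysteine pairs, which is the part that binds the receptor. The coding bases of this module, from the first to the last cysteine codon, are shown for Nrg1, which rose, and for Areg and Ereg, which did not pass the test or were too low for it, to show how alike and how different they are. They were read from the GENCODE transcripts Areg-201, Ereg-201 and Nrg1-201 on GRCm38, 5′ to 3′ on the coding strand, with the 6 cysteine codons in capitals.
Areg: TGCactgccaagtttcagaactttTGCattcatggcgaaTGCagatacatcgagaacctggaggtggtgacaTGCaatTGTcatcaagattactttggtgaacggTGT
Ereg: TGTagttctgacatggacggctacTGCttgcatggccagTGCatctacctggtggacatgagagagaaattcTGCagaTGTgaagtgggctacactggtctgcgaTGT
Nrg1: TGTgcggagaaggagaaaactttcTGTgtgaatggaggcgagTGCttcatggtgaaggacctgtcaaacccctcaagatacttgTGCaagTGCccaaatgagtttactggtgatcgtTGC
The modules of Areg (plus strand, chr5:91143614-91144364) and Ereg (plus strand, chr5:91088496-91089111) each lie in coding parts of exons 3 and 4 and were identical at 58 of 108 bases (53.7%). The module of Nrg1 (minus strand, chr8:31837698-31849398, exons 2 and 3 of that transcript) had 40 codons against 36 for the other two, with 13 in place of 10 codons between the third and the fourth cysteine. The cysteine pattern was found in 11 of the 18 annotated Nrg1 transcripts. Only transcripts with a coding sequence and an annotated start codon were searched, so the rest cannot all be said to lack it. Counts per gene do not tell these isoforms apart. Areg (91139599 to 91148432) and Ereg (91074622 to 91093646) are neighbours on chromosome 5 with Epgn and Btc, further members of the family.

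The libraries held between 13285472 and 24536264 counts. Expression is given per library as CPM, counts scaled to a common library size with TMM normalization, and genes were compared with edgeR's quasi-likelihood test over the 14175 genes that passed its filter on low counts, with Benjamini-Hochberg adjustment. A gene was taken as changed at an adjusted p of 0.05 or less. Of all genes tested, 36.4% met this threshold, 18.9% higher and 17.4% lower with STEM. Horse serum library 6 stood apart from the rest of its group. On the first principal component of the log2 CPM of all genes tested (44.2% of the variance) it lay at 11.2. The other horse serum libraries lay there at -35.5 to -24.6 and the STEM libraries at 15.5 to 28.6. On the second component (19.8%) library 6 lay at -53.3 and all others at 0.216 to 11.8. All 9 myotube markers checked, from Myog to Ttn, were lower in it than in each of the other horse serum libraries. Their summed level was 11850 CPM against 16530 to 18940 CPM in those and 15440 to 21010 CPM with STEM. Singly, Myog fell with STEM (log2 fold change -0.29, adjusted p = 0.00404 in edgeR) and Mymk rose (0.36, adjusted p = 0.000361). The other markers did not pass the test. Without library 6, 1 of the 9 rose and 4 fell, in a fit that took 50.8% of all genes as changed. All libraries are used unless stated otherwise. In RNA from whole cultures, fewer cells of a type and less RNA per cell cannot be told apart.

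Among the 7 members, Hbegf and Nrg1 rose with STEM, and none of the tested members fell. Hbegf was 1.78-fold and Nrg1 1.35-fold higher in mean CPM. The transcripts of the 3 receptors and of Ereg did not pass the test, and Areg was too low to be tested. Thus 2 of the 6 tested members were changed, where 36.4% of all genes were, so that the count is no result about the family. Without horse serum library 6 the same 2 rose, where 26.3% of all genes rose and 24.5% fell. The median log2 fold change of the tested members was 0.066 against 0.012 over all genes tested. Whether the changes of the members differ from one another was not tested.

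**Figure D1:**
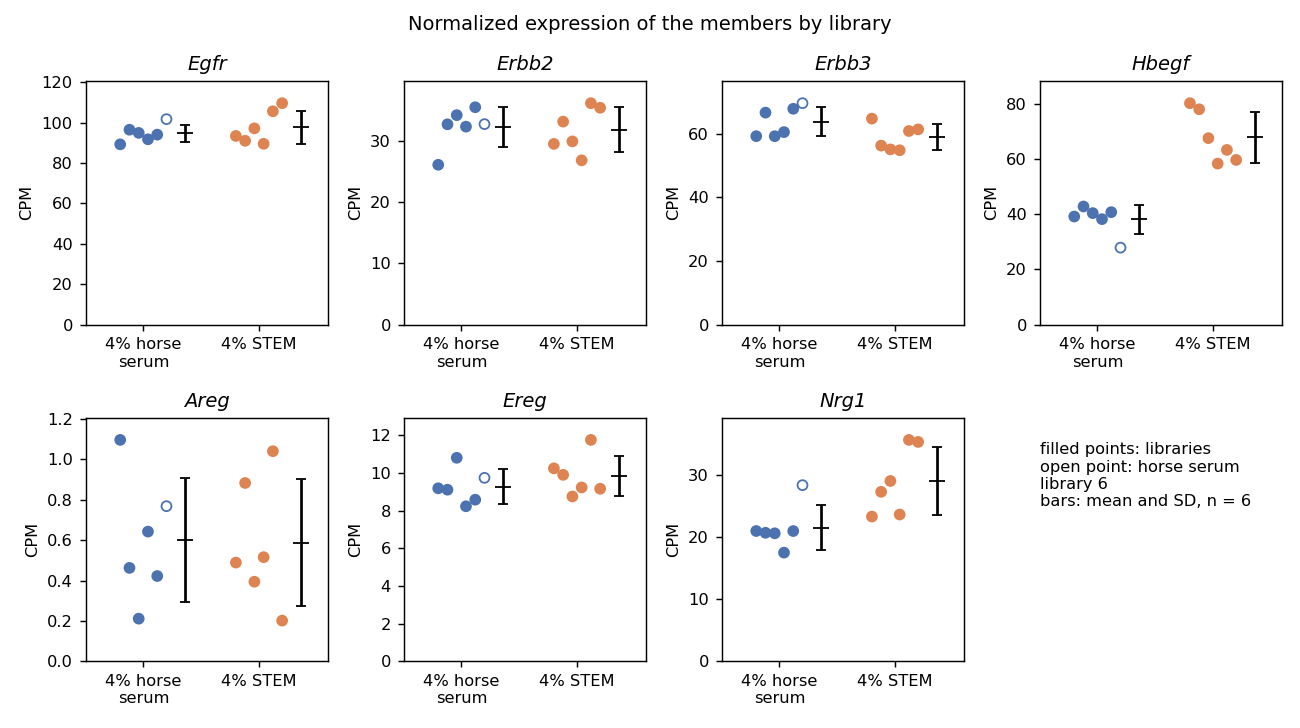
Normalized expression (CPM, y axis from 0) of each of the 7 members in the 6 libraries with 4% horse serum and the 6 with 4% STEM. Points are libraries, the open point is horse serum library 6, and the bars give the mean and SD. All STEM libraries lie above all horse serum libraries for Hbegf alone, while for Nrg1 only horse serum library 6 reaches into the STEM range.

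Hbegf (ENSMUSG00000024486, chromosome 18, 36504927 to 36515805) codes for a ligand that binds the EGF receptor and, through its heparin-binding stretch, heparan sulfate. Its lowest, median and highest values were 27.9, 39.8 and 42.8 CPM in the control libraries. In the STEM libraries they were 58.3, 65.4 and 80.1 CPM. The groups did not overlap, which was the case for 17.2% of all genes tested. The mean rose from 38.2 ± 5.28 to 67.8 ± 9.31 CPM (SD over 6 libraries each). On the log2 scale this was a change of 0.83 (standard error 0.106, 95% interval 0.61 to 1.06, adjusted p = 4.08e-05 in edgeR). Of all tested genes, 4.68% had a larger absolute log2 fold change, and 259 genes had a higher one. Horse serum library 6 was the lowest of its group for this gene. Without it, horse serum stood at 40.2 ± 1.73 CPM (SD, n = 5) and the log2 fold change was 0.76 (adjusted p = 2.05e-06 in edgeR). Within the STEM group, libraries 7 and 8 were highest, at 80.1 and 77.9 CPM, against at most 67.5 CPM in the other 4.

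Nrg1 (ENSMUSG00000062991, chromosome 8, 31814551 to 32884029) codes for neuregulin 1, the ligand that acts through ErbB3 and its partner ErbB2. The lowest, median and highest control values were 17.5, 20.8 and 28.3 CPM, and those with STEM were 23.3, 28.1 and 35.6 CPM. The groups overlapped because of horse serum library 6, which held the 28.3 CPM, while the next horse serum library held 20.97 CPM and lay below all 6 STEM libraries. The mean rose from 21.5 ± 3.60 to 29.0 ± 5.44 CPM (SD over 6 libraries each), which gave a log2 fold change of 0.43 (standard error 0.129, 95% interval 0.15 to 0.70, adjusted p = 0.0191 in edgeR). Without library 6 the log2 fold change was 0.52 (adjusted p = 0.00225 in edgeR). STEM libraries 11 and 12 were highest for Nrg1 (35.6 and 35.3 CPM) and were not those highest for Hbegf. Library 6 thus lay below its group for Hbegf and above it for Nrg1, beside its lower myotube markers, and the part of the myotube content in both values was not tested.

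Ereg (ENSMUSG00000029377) codes for epiregulin, which binds the EGF receptor and ErbB4. It was low in both groups, with control values of 8.23 to 10.8 CPM (median 9.15) and STEM values of 8.75 to 11.8 CPM (median 9.56). Of the STEM libraries 1 lay above the control range. The log2 fold change was 0.09 (95% interval -0.11 to 0.28, adjusted p = 0.484 in edgeR), which leaves room for a change between 0.928-fold and 1.22-fold. In the annotation, 141 bases of its exons lie opposite the antisense gene Gm19610, which held 128 counts over the 12 libraries, and reads of such a pair can be told apart only if the counting used the strand.

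Areg (ENSMUSG00000029378), the gene of amphiregulin, held 3 to 16 counts per horse serum library and 3 to 17 per STEM library and did not pass the filter on low counts. The control mean of 0.601 ± 0.309 CPM compared with 0.588 ± 0.314 CPM for STEM (SD, n = 6 each, exact permutation test, two-sided, p = 0.939). No difference was detected.

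Egfr (ENSMUSG00000020122, chromosome 11, 16752203 to 16918158) codes for the receptor of Hbegf, Areg and Ereg products and had the most counts of all members. Control values ran from 89.2 to 101.7 CPM (median 94.5) and STEM values from 89.5 to 109.6 CPM (median 95.3). Of the STEM libraries 4 lay within the control range, and libraries 11 and 12 lay above it. The log2 fold change was 0.05 (standard error 0.055, 95% interval -0.07 to 0.16, adjusted p = 0.554 in edgeR), so that a change beyond 0.951-fold or 1.12-fold lay outside the interval.

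Erbb2 (ENSMUSG00000062312, chromosome 11, 98412470 to 98437716), the gene of the shared partner receptor, ranged from 26.1 to 35.5 CPM with horse serum, with a median of 32.7 CPM. With STEM it ranged from 26.8 to 36.2 CPM, with a median of 31.5 CPM. The groups covered nearly the same range, and the log2 fold change was -0.02 (95% interval -0.20 to 0.16, adjusted p = 0.869 in edgeR). Horse serum library 1 held the 26.1 CPM, and the other 5 held at least 32.3 CPM.

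Erbb3 (ENSMUSG00000018166, chromosome 10, 128567523 to 128589652), the gene of the neuregulin receptor, ranged from 59.3 to 69.7 CPM with horse serum, with a median of 63.6 CPM. With STEM it ranged from 54.9 to 64.8 CPM, with a median of 58.6 CPM. Of the 6 STEM libraries 3 lay below every horse serum library. The log2 fold change was -0.12 (standard error 0.059, 95% interval -0.24 to 0.01, adjusted p = 0.137 in edgeR), which did not pass the test. Horse serum library 6 was the highest of all 12, and without it the log2 fold change was -0.09 (adjusted p = 0.186 in edgeR).

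**Figure D2:**
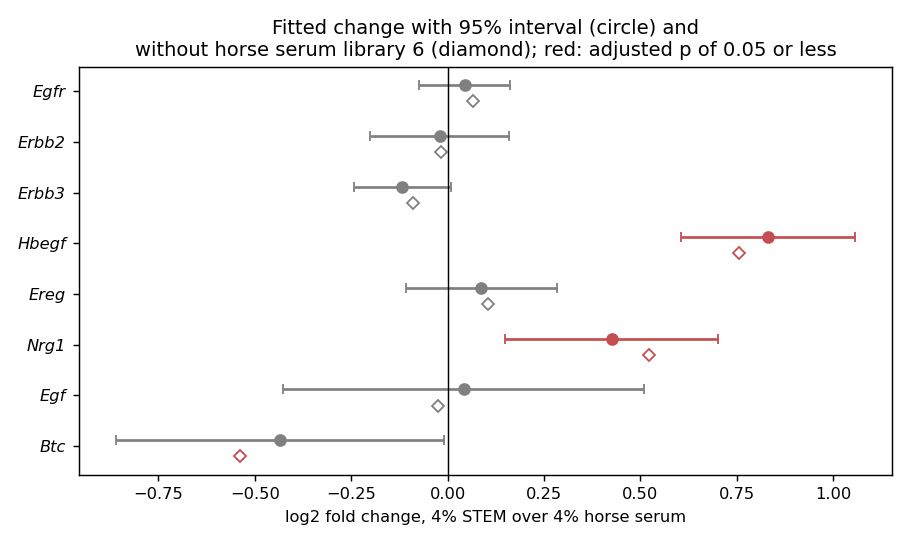
Log2 fold change of STEM over horse serum (x axis) from edgeR for the 6 tested members and for Egf and Btc, the tested genes of the rest of the family. Circles with bars are the estimate and its 95% interval over all 12 libraries, diamonds the estimate without horse serum library 6, and red marks an adjusted p of 0.05 or less. Hbegf (0.83) and Nrg1 (0.43) are red with and without library 6, and Btc is red only without it.

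To compare levels between genes, counts were divided by the length of all exons of a gene and scaled to a common total, which gives TPM. With horse serum the order of the mean levels was Erbb3 (22.8 TPM), Egfr (17.97 TPM), Hbegf (16.8 TPM), Erbb2 (13.3 TPM), Ereg (4.82 TPM), Nrg1 (4.50 TPM) and Areg (1.06 TPM). With STEM it was Hbegf (30.6 TPM), Erbb3 (21.4 TPM), Egfr (18.8 TPM), Erbb2 (13.3 TPM), Nrg1 (6.11 TPM), Ereg (5.21 TPM) and Areg (1.06 TPM). The place of Hbegf with horse serum depended on the length and on library 6: Egfr was above it in 3 of 6 libraries, without library 6 the means were 17.3 TPM for Hbegf and 17.1 TPM for Egfr, and with the length of the longest transcript Hbegf headed this order too (23.4 TPM against 18.97 TPM for Erbb3). With STEM it headed the order under both lengths. Its lowest STEM library (26.1 TPM) lay above the highest STEM library of Erbb3 (24.3 TPM). With horse serum the ranges of the neighbours from Erbb3 down to Erbb2 overlapped, as did those of Ereg and Nrg1 in both groups and those of Erbb3 and Egfr with STEM. With exon lengths Ereg was above Nrg1 in 5 of 6 horse serum libraries and Nrg1 above Ereg in 5 of 6 STEM libraries, whereas with the longest transcript Nrg1 had the higher mean in both groups (7.14 against 4.01 TPM with horse serum).

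The fourth receptor gene of the family, Erbb4, had 0 counts in all 12 libraries. Among 11 ligand genes of the family, Hbegf made up (with exon lengths) 58.1 ± 5.36% of the summed TPM with horse serum and 68.3 ± 4.34% with STEM (SD, n = 6 each), given without a test. The sum itself was 28.9 ± 1.40 TPM and 44.8 ± 5.03 TPM.

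**Figure D3:**
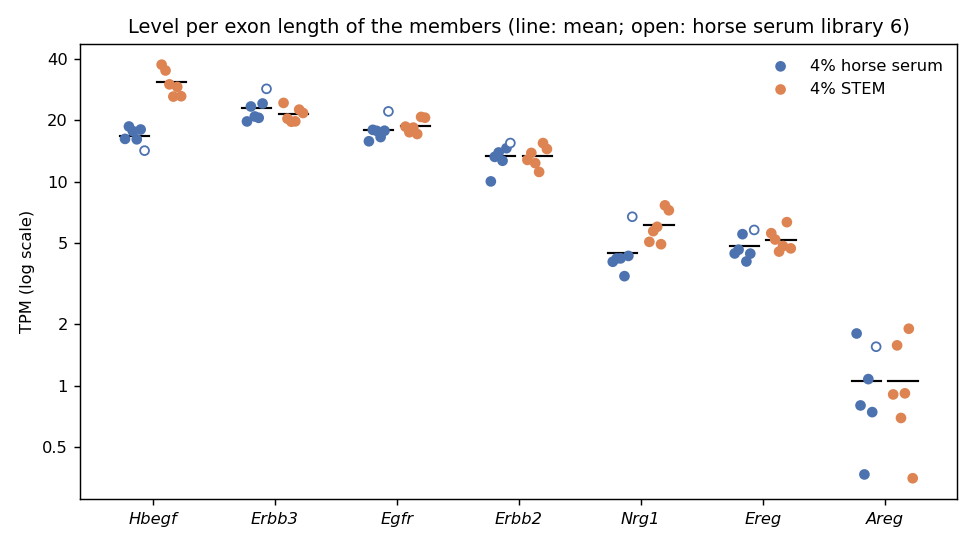
Level of the members in TPM (y axis, log scale), ordered by the mean over 12 libraries. Points are libraries (open: horse serum library 6) and lines are group means. With STEM, Hbegf (26.1 to 37.4 TPM) lies above every receptor gene, and Areg is lowest in both groups.

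The other 8 genes of the family were little or not expressed. Nrg3, like Erbb4, had 0 counts in every library, where the floor is 3 counts. Nrg2 and Nrg4 had 1 count each in all, and Tgfa, the gene of transforming growth factor alpha, at most 3 counts per library. Epgn (epigen) held 2 to 6 counts per horse serum library and 4 to 10 per STEM library, 0.252 ± 0.121 and 0.468 ± 0.123 CPM (SD, n = 6 each, exact permutation test, two-sided, p = 0.0173, not adjusted). Egf itself stood at 2.23 ± 0.287 and 2.30 ± 0.896 CPM and did not pass the test (log2 fold change 0.04, adjusted p = 0.898 in edgeR). The betacellulin gene Btc stood at 2.13 ± 0.696 and 1.55 ± 0.193 CPM (log2 fold change -0.43, adjusted p = 0.103 in edgeR). Without horse serum library 6, the lowest of its group for Btc, the log2 fold change was -0.54 (adjusted p = 0.0223), and without library 3, the highest, it was -0.25 (adjusted p = 0.301), both from edgeR.

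Ligand release was described by 13 genes of sheddases and their regulators. Of these 5 rose and 0 fell, against the 18.9% and 17.4% of all genes, and the median log2 fold change was 0.045. Without horse serum library 6, 5 rose and 1 fell, namely Rhbdf2 (log2 fold change -0.31, adjusted p = 0.0156 in edgeR), which is named after its values were seen. Timp3, the gene of an inhibitor of metalloproteinases including the sheddase ADAM17, rose most, from 253 ± 11.6 to 494 ± 24.5 CPM (SD over 6 libraries, adjusted p = 4.76e-09 in edgeR). Rhbdf1, whose product iRhom1 escorts ADAM17, rose from 54.7 to 70.2 CPM, and Bace1, the gene of a protease that cleaves the neuregulin 1 precursor, from 76.7 to 94.2 CPM. Adam15 rose from 33.9 to 40.1 CPM. Adam12, named after its values were seen, rose from 35.1 to 58.4 CPM. The main sheddase genes Adam17 (log2 fold change 0.05, adjusted p = 0.394 in edgeR) and Adam10 (-0.17, adjusted p = 0.130) did not pass the test and are also named after their values were seen.

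Of 14 genes of receptor inhibitors and receptor turnover, 2 rose and 2 fell, where 36.4% of all genes were changed. Rnf41, the gene of the ubiquitin ligase Nrdp1 that acts on ErbB3, rose from 41.3 to 47.7 CPM, and Lrig3 rose from 42.2 to 50.3 CPM. Socs4 fell from 40.6 to 37.0 CPM. Errfi1, which codes for the feedback inhibitor Mig6 of the EGF receptor, fell from 73.2 ± 12.3 to 61.9 ± 3.57 CPM (SD over 6 libraries, adjusted p = 0.0456 in edgeR). The changes of these 4 genes were small, between -0.24 and 0.25 on the log2 scale. Horse serum library 6 was the highest of its group for Errfi1 (96.7 CPM) and Lrig3 (53.0 CPM), without it the log2 fold change of Errfi1 was -0.14 in place of -0.24, and 4 genes of this list rose and 4 fell, when 50.8% of all genes tested were changed.

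Of 7 genes of membrane proteins and scaffolds that bind the ligands or receptors, 1 rose and 3 fell, where 18.9% of all genes rose and 17.4% fell. Without horse serum library 6, 2 rose and 3 fell, where 26.3% of all genes rose and 24.5% fell. Cd9, the gene of a tetraspanin that associates with the precursor of HB-EGF, fell from 221 ± 12.2 to 139 ± 13.1 CPM (SD over 6 libraries), or -0.67 on the log2 scale (adjusted p = 1.7e-06 in edgeR). Sdc4, which codes for a heparan sulfate proteoglycan, fell from 229 ± 47.3 to 123 ± 24.2 CPM, and 4 STEM libraries lay below the whole control range. Horse serum library 6 held 135 CPM of Sdc4, within the STEM range. Erbin, the gene of an ErbB2-binding scaffold protein, fell from 347 to 296 CPM, and Cd82, the gene of another tetraspanin, rose from 301 to 360 CPM. The groups did not overlap for Cd9, Erbin and Cd82, as for 17.2% of all genes.

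Of 34 genes of adaptors and kinases that relay the signal, 33 were tested, and 7 rose and 7 fell, with a median log2 fold change of 0.026, where 36.4% of all genes were changed. The groups did not overlap for 11 of the 33, against 17.2% of all genes. The changes lay between -0.41 and 0.43 on the log2 scale. Members of one subunit family went in opposite directions: Pik3r1, the gene of a regulatory subunit of PI3 kinase, fell from 81.3 to 64.4 CPM, and Pik3r2, the gene of a second such subunit, rose from 82.2 to 102.6 CPM. Hras rose from 43.5 to 56.5 CPM. These 3 genes are named for their low p. Without horse serum library 6, 9 genes of this list rose and 8 fell, in a fit that took 50.8% of all genes as changed.

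Transcripts that ERK signalling is known to induce were read as 19 genes, which respond to many receptors besides these. Of them 1 rose and 6 fell, where 18.9% of all genes rose and 17.4% fell, so that the count of 7 changed genes of 19 is close to the 36.4% of all genes, and the median log2 fold change was -0.21. Ccnd1, the gene of cyclin D1, fell from 64.5 ± 12.6 to 17.5 ± 1.51 CPM (SD over 6 libraries), or -1.88 on the log2 scale (adjusted p = 9.48e-08 in edgeR). The feedback inhibitor genes Spry1 (38.3 to 24.8 CPM) and Dusp4 (12.9 to 8.68 CPM) and the ETS factor gene Etv4 (6.81 to 3.61 CPM) fell as well. The 1 gene that rose was Egr1 (10.5 to 20.2 CPM), named after its values were seen. Without horse serum library 6, 1 gene of the list rose and 8 fell, with a median log2 fold change of -0.24, where 26.3% of all genes rose and 24.5% fell.

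Of 9 genes tied to neuregulin in muscle, namely subunits of the acetylcholine receptor, utrophin and transcription factors of the ETS and Egr families, 1 rose and 3 fell, with a median log2 fold change of -0.21, where 36.4% of all genes were changed. Etv1 fell from 5.46 to 3.26 CPM, Utrn, the gene of utrophin, from 312 to 256 CPM, and Gabpa from 108 to 93.3 CPM. Chrnb1, the gene of the beta subunit of the acetylcholine receptor, rose from 85.0 to 97.2 CPM. Chrne, the subunit gene tied to synaptic nuclei, is named after its values were seen and stood at 3.41 and 2.02 CPM (log2 fold change -0.73, adjusted p = 0.243 in edgeR). Without horse serum library 6, its log2 fold change was -1.01 (adjusted p = 6.28e-05) and 2 genes of the list rose and 5 fell, in a fit that took 50.8% of all genes as changed.

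**Figure D4:**
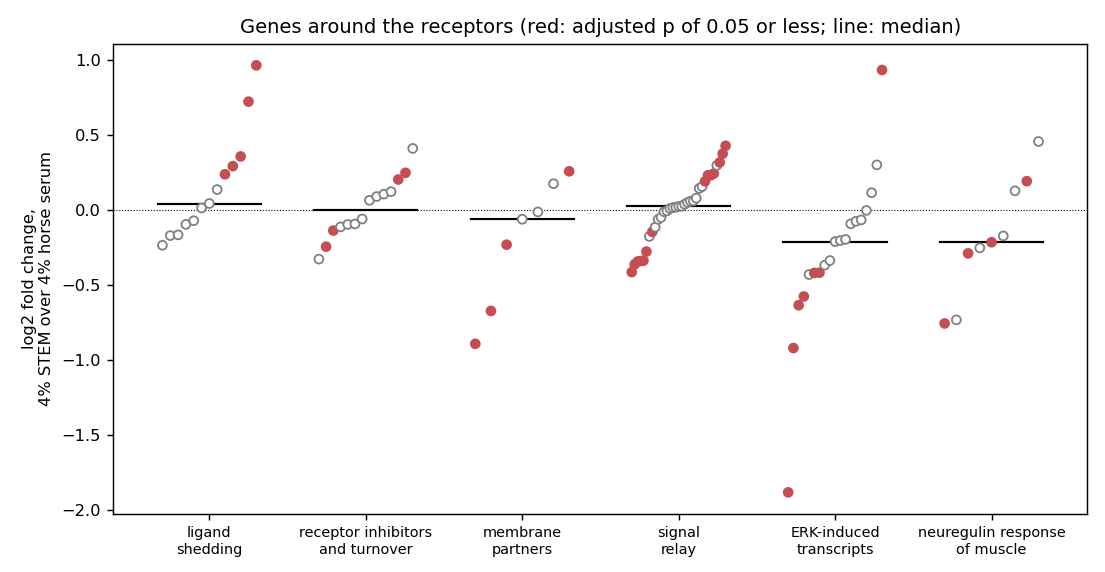
Log2 fold change of STEM over horse serum (y axis) for the tested genes of 6 lists around the receptors. Points are genes, filled red at an adjusted p of 0.05 or less, and lines are list medians. The 5 changed genes of ligand release, among them the inhibitor gene Timp3, are all above 0. Of the 7 changed ERK-induced transcripts 6 are below 0, with Ccnd1 at -1.88. Of all genes tested, 18.9% rose and 17.4% fell.

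Markers of other cell types that carry this family were checked. Of 5 Schwann cell markers, cells known for ErbB3, Cdh19 was at 0 and Sox10 at 2 counts or fewer in every library, and the summed level was 0.685 to 1.98 CPM with horse serum and 0.796 to 1.84 CPM with STEM. Of 5 epithelial markers, Krt5 was at 0 and Epcam did not exceed 1 count, but the sum was higher with STEM, from 18.45 to 28.0 CPM against 7.80 to 8.999 CPM in 5 horse serum libraries and 15.5 CPM in library 6. The gene behind it was Krt14, which rose from 3.07 to 18.5 CPM (adjusted p = 0.000586 in edgeR), while Cdh1 fell. Library 6 held 9.23 CPM of Krt14, and without it the control mean was 1.83 CPM and the log2 fold change 3.31 in place of 2.52. Its part in the rise of Hbegf was not tested. Of 5 leukocyte markers, Adgre1 was at 0 and Ptprc at 1 count or fewer, with sums of 2.15 to 5.21 and 4.24 to 5.71 CPM. Cd68 held most of these sums, with 39 to 68 counts per horse serum library and 54 to 87 per STEM library. Its means were 3.60 and 3.88 CPM, and it did not pass the test (log2 fold change 0.12, adjusted p = 0.610 in edgeR). Among these, Csf1r was below the filter at 0.288 ± 0.198 CPM for the control and 0.917 ± 0.315 CPM for STEM, with 5 STEM libraries above the control range (exact permutation test, two-sided, p = 0.00649, not adjusted). Without horse serum library 6, 2 leukocyte markers were tested and 1 rose, where 26.3% of all genes rose. Cd68 then stood at a log2 fold change of -0.01 (adjusted p = 0.954 in edgeR). The part of Csf1r in the results was not tested. Of 6 markers of unfused myoblasts, Cd34 and Myf5 fell with STEM and 0 rose, where 17.4% of all genes fell and 18.9% rose. Pdgfra, whose use as a myoblast marker was not checked here, stood at 24.8 CPM in horse serum library 6. Without that library it rose from 11.6 to 18.4 CPM (adjusted p = 2.48e-06 in edgeR). For all 6 markers the summed level was 600 to 695 CPM with horse serum and 575 to 715 CPM with STEM. Most of this sum was Cdon, with means of 462 and 493.5 CPM, which did not pass the test. The sum therefore does not show the falls of Cd34 (79.75 to 47.5 CPM) and Myf5 (18.1 to 13.5 CPM).

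Across all 12 libraries, the genes whose log2 CPM went most closely with Hbegf were Kctd11 (Pearson r = 0.982) and Metrnl (r = 0.966), and those closest to Nrg1 were Wasf2 (r = 0.978) and Htt (r = 0.971). For Egfr they were Chd8 (r = 0.956) and Fgd1 (r = 0.936), for Erbb2 Jpx (r = 0.917) and Gm44829 (r = 0.875), for Erbb3 Ltn1 (r = 0.890) and Rock1 (r = 0.872), and for Ereg ENSMUSG00000118642 (r = 0.866) and Zswim3 (r = 0.804). These are the highest of 14175 genes over only 12 libraries, which share groups and normalization, and are given as a description. Without horse serum library 6, r stayed between 0.803 and 0.982 for these pairs.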

How the data were processed

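RNA of 12 C2C12 samples was sequenced. The authors made stranded, rRNA-depleted libraries and deposited raw counts per Ensembl gene. The submitters' processing notes name STAR 2.7.3a, featureCounts 1.6.3, DESeq2 1.26.0 and GRCm38. The annotation release and the strand setting are not given in the sources used here. GENCODE M21 held 55227 of the 55487 listed genes, and 0.00268% of counts fell outside it. Nrdc was matched by its RefSeq synonym. Exon union lengths gave TPM.

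Counts were tested with edgeR 4.0.16 (glmQLFit, robust, TMM, filterByExpr) in R 4.3.3, with horse serum and STEM grouped by the labels. DESeq2 1.42.0 and limma-voom (limma 3.58.1), other scalings and filters, thinning to the lowest total and leaving out each library were alternatives. Floors were 3 counts and cover counting error only. The code was tested on simulated data. Replicate pairs differed by a chi-square per degree of freedom of 3.54 to 76.6.

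The members and lists were chosen with earlier results of these data known. Named were the family, at most 4 changed genes with the lowest p per list, markers, and the 2 genes most correlated with each tested member. A named gene of the relay list and a marker are not reported here.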

Additional observations from a re-analysis of the deposited data

Results flagged for a closer look

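Among 68 groups of 6 libraries, 9 held a library far from the rest, meaning that its gap to the nearest library exceeded 0.625 of the group's range, where chance gives about 1 in 20. Of these 9, 6 were horse serum library 6. It was low for Hbegf (27.9 CPM against 38.2 to 42.8 CPM in the other 5) and Sdc4 (135.4 CPM against 232 to 261 CPM). It was high for Nrg1 (28.3 CPM against 17.5 to 20.97 CPM), Lrig3 (53.0 CPM against 38.2 to 42.0 CPM), Errfi1 (96.7 CPM against 61.1 to 73.3 CPM) and Etv4 (10.04 CPM against 4.95 to 6.64 CPM). The others were Erbb2 in horse serum library 1 (26.1 CPM), Btc in horse serum library 3 (3.46 CPM) and Etv4 in STEM library 10 (2.45 CPM).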

How the results depend on the processing

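Hbegf and Nrg1 passed the test under all 8 other scalings, filters, tools and depths, with log2 fold changes of 0.81 to 0.86 and 0.40 to 0.44, and with each of the 12 libraries left out (0.76 to 0.87 and 0.36 to 0.52, with adjusted p of Nrg1 up to 0.0459). Egfr, Erbb2, Erbb3 and Ereg passed under none of these. With a library left out, the log2 fold change was 0.01 to 0.07 for Egfr, -0.075 to 0.024 for Erbb2, whose sign turned without horse serum library 5 (0.0083) and STEM library 10 (0.024), -0.16 to -0.09 for Erbb3 and 0.03 to 0.13 for Ereg, and the difference in mean CPM of Areg was -0.10 to 0.086 (chosen after seeing the data). At an adjusted p of 0.01, 3266 genes and 1 member (Hbegf) passed. Leaving out a library gave 4459 to 7245 genes and 2 members, the highest without horse serum library 6. The count for receptor inhibitors and turnover was 2 in place of 4 with total counts only and without the filter, and 3 with limma-voom. It was 6 with upper quartile scaling and with a filter of at least 10 counts in every library. With a library left out it was 2 to 8 (8 without horse serum library 6, and 2 without each of 6 other libraries). The count for the neuregulin response was 6 in place of 4 with upper quartile scaling, that filter and thinning. With total counts only and with limma-voom it was 5. With a library left out it was 3 to 7 (7 without library 6), and that for the rest of the family 0 to 1 (Btc, without library 6). The cause was not tested. With the longest transcript as length, all 7 members kept their TPM order with STEM, but only 2 their place with horse serum, and without horse serum library 6 (added after seeing the data) 5 kept it. Other scalings moved the median log2 fold change of all genes by at most 0.0202. No paired analysis was possible because the groups share no replicate numbers. Few counts limit the precision for Areg, Epgn and Tgfa.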
